A study of Bos taurus with 30 samples.

Results

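The 100 transcripts described here had their highest stage median in the bovine cervix 24 h after removal of a progesterone device. They were taken from counts per Ensembl transcript in 30 Limousin heifers, 1 library of polyadenylated RNA per heifer. Counts were divided by the library total and given per 1000000 counts (CPM). Of 28054 transcript IDs listed, 16207 had a mean of at least 1 and under 1000 CPM. Of these, 3332 had their highest stage median 24 h after device removal, and in 769 that median was at least 1.5 times the next highest stage median after 0.5 CPM was added to each. The 100 with the largest ratios were kept. The same ratio of 1.5 was met by 931 transcripts highest at oestrus, 151 highest 12 h after device removal, 87 highest 48 h after onset, 65 highest 12 h after onset and 56 highest at the luteal stage.

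The device (CIDR, for controlled internal drug release) held 1.94 g progesterone and stayed in the vagina of every heifer for 8 days. Each heifer was also injected with a prostaglandin F2α analogue (0.5 mg) on the day before it was taken out. The cervix was collected at slaughter 12 h after removal (CIDR+12h, n = 6), 24 h after removal (CIDR+24h, n = 6), at onset of oestrus (Oestrus, n = 4), 12 h after onset (Oestrus+12h, n = 4), 48 h after onset (Oestrus+48h, n = 5) and on day 7 after onset (Luteal, n = 5). In the protocol text 2 of these numbers are the other way round, with 5 at Oestrus+12h then 4 at Oestrus+48h, and each sample's own stage label was used. Each heifer was sampled at 1 stage, so differences between stages are also differences between animals. The sources used here give no ages.

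The cervix is lined by an epithelium that secretes mucus, over a stroma of collagen, fibroblasts and smooth muscle. When progesterone falls and oestrogen from the growing follicle rises, this epithelium is known to release more and thinner mucus and the stroma to loosen, and at the luteal stage progesterone from the corpus luteum is known to keep the canal closed with thick mucus. Tissue taken 24 h after device removal lies within the interval between progesterone withdrawal and oestrus. The deposited tables give transcript IDs only, and 0 of the IDs matched the name table used here. No gene symbol, role, pathway, cell type or sequence is therefore attached to the 100 transcripts, and the labelled tissue could not be checked against marker genes. In whole tissue, fewer cells of a type and less RNA per cell cannot be told apart.

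The high stage median was carried by 4 of the 6 CIDR+24h heifers, and the label of a peak at 24 h did not hold for the other 2. In all 100 transcripts the 2 lowest of the 6 CIDR+24h heifers were replicates 3 and 5. For each transcript, the lowest of the other 4 was divided by the higher of these 2 after adding 0.5 CPM to each. Over the transcripts this ratio had a median of 4.00 and a minimum of 1.48. Replicate 5 was the lowest CIDR+24h heifer for 97 transcripts and the lowest of all 30 heifers for 19. The stage median of 6 heifers is the mean of the middle pair, which here lay above this gap.

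The level of the group in a heifer was summarised as the median over the 100 transcripts of log2((CPM + 0.5) / (median CPM of the 30 heifers + 0.5)). On this log2 scale CIDR+24h replicates 1, 2, 4 and 6 were at 2.12, 2.54, 1.81 and 2.35. Replicates 3 and 5 were at -0.18 and -1.19, the latter the lowest of the 30 heifers. The CIDR+24h heifers thus formed a high and a low set, and between them they spanned the levels of all heifers of the other stages.

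**Figure D1:**
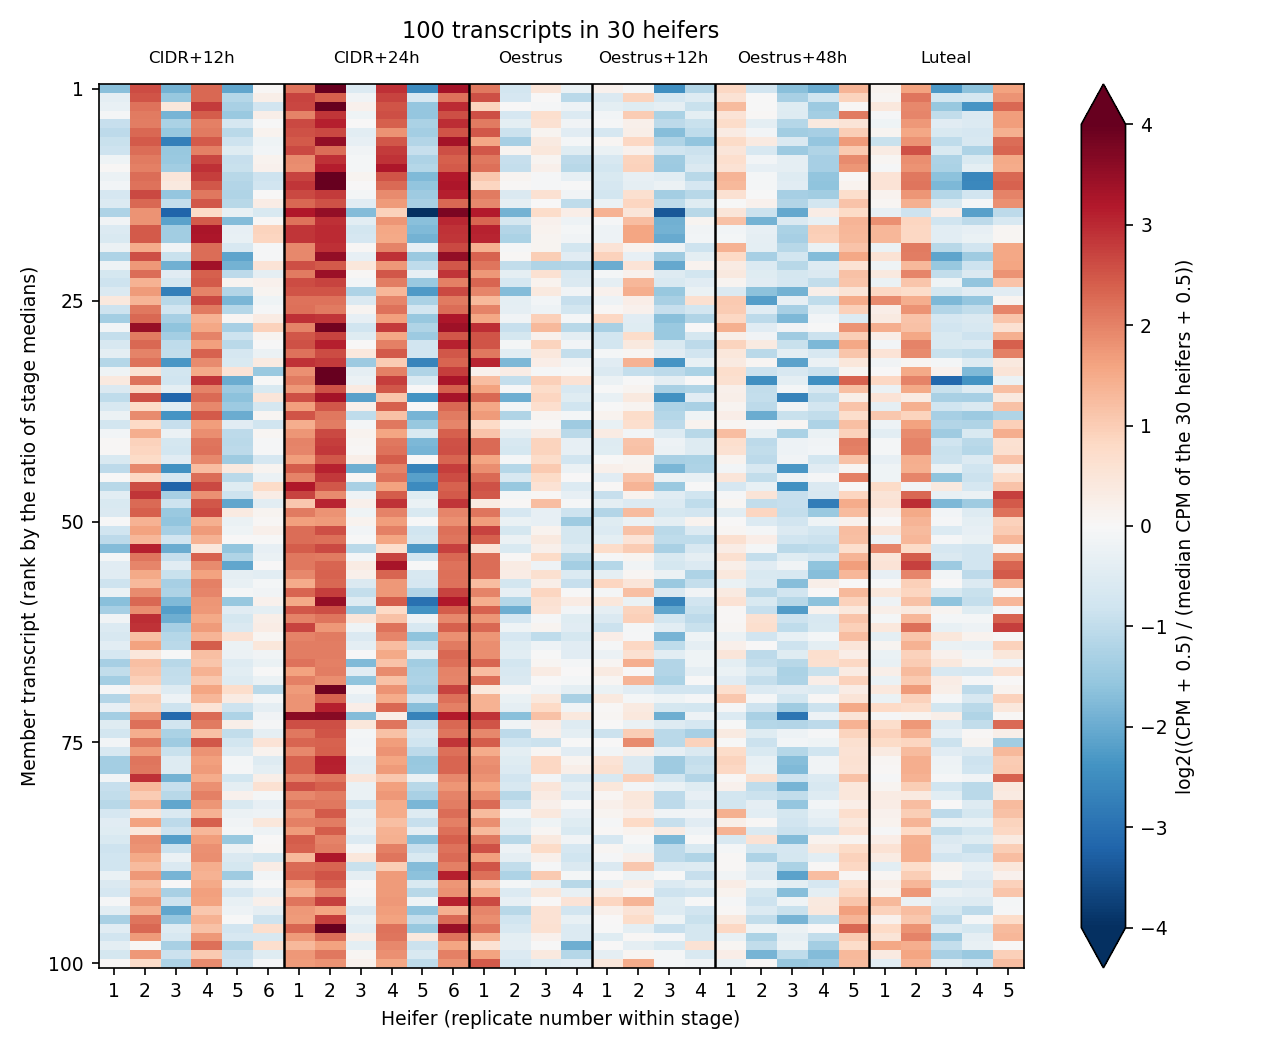
Level of each of the 100 transcripts (rows, ranked by the ratio of stage medians) in each of 30 heifers (columns, by stage and replicate number), as log2((CPM + 0.5) / (median CPM of the 30 heifers + 0.5)), with red above and blue below the transcript's own median and colours ending at 4 and -4. Whole columns share a colour: CIDR+24h replicates 1, 2, 4 and 6 are red in all 100 rows, as are CIDR+12h replicates 2 and 4 and Oestrus replicate 1.

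High levels of the group were also found in single heifers of other stages. At CIDR+12h, replicates 2 and 4 were at 1.83 and 1.90, while replicates 1, 3, 5 and 6 were at -0.61, -1.11, -0.71 and -0.03. At Oestrus, replicate 1 was at 1.98 and replicates 2, 3 and 4 were at -0.58, 0.26 and -0.45. CIDR+12h replicate 4 and Oestrus replicate 1 thus lay above CIDR+24h replicate 4, and CIDR+12h replicate 2 did too by a small margin.

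Later stages had lower high values. At Oestrus+12h the 4 heifers were at -0.07, 0.26, -1.02 and -0.62, with none near the high CIDR+24h heifers. At Oestrus+48h they were at 0.27, -0.54, -0.89, -0.62 and 0.94. The Luteal heifers were at 0.17, 1.42, -0.62, -0.66 and 1.07, and Luteal replicates 2 and 5 had 97 and 90 of the 100 transcripts above the transcript's own median of 30 heifers.

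Ordered by its mean (± SD over heifers), this level was 1.24 ± 1.55 for the 6 heifers of CIDR+24h, 0.30 ± 1.18 for the 4 of Oestrus and 0.28 ± 0.95 for the 5 Luteal heifers. Then came 0.21 ± 1.32 for the 6 of CIDR+12h, -0.17 ± 0.76 for the 5 of Oestrus+48h and -0.36 ± 0.57 for the 4 of Oestrus+12h. In the order of the means, no stage differed from the next by more than the SD within CIDR+24h. The transcripts were chosen for their CIDR+24h median, so these means describe the group and no test of them is given.

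**Figure D2:**
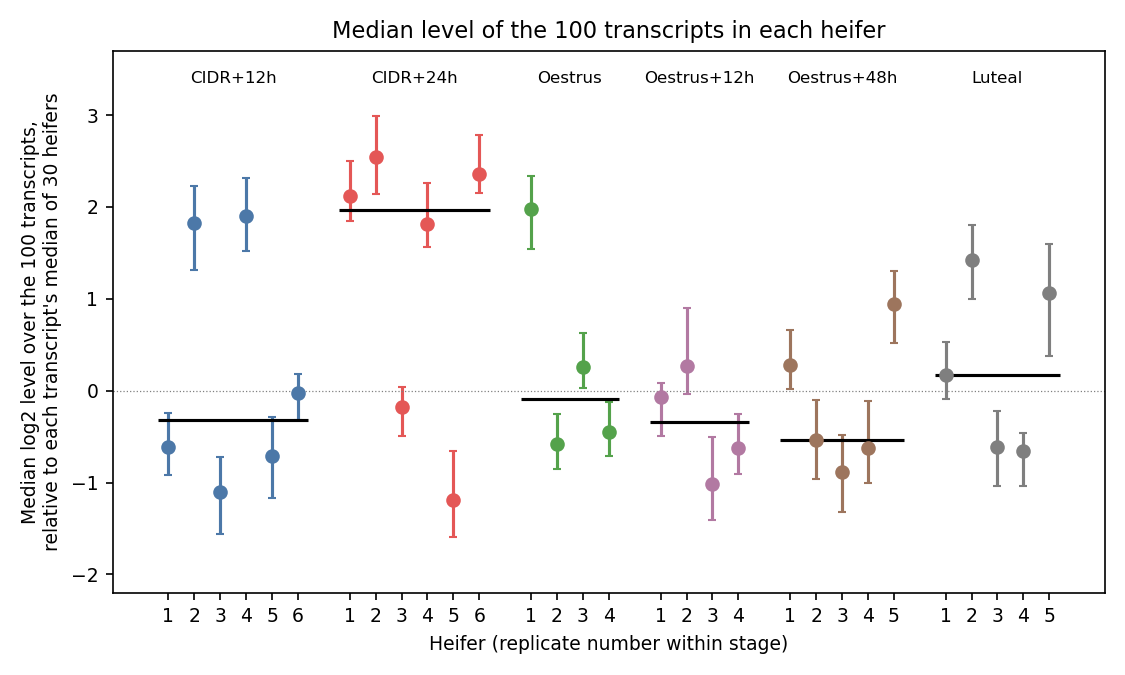
Median log2 level of the 100 transcripts in each heifer (points; bars span the 25th to 75th percentile over the transcripts) by stage, relative to each transcript's median of 30 heifers; black lines mark the median heifer of each stage. CIDR+24h heifers range from -1.19 to 2.54, and the highest heifers of CIDR+12h and Oestrus reach 1.90 and 1.98.

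As a share of all counts, the 100 transcripts took 1.28%, 1.74%, 1.08% and 1.55% in CIDR+24h replicates 1, 2, 4 and 6, and 0.215% and 0.113% in replicates 3 and 5. The share was 1.04% and 1.03% in CIDR+12h replicates 2 and 4 and 1.08% in Oestrus replicate 1. It lay between 0.110% and 0.791% in every other heifer outside CIDR+24h. The mean was 0.996% ± 0.683 at CIDR+24h (SD, n = 6) against 0.204% ± 0.0888 at Oestrus+12h (n = 4), the stage with the lowest mean.

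Library totals ranged from 5434853 to 19628122 counts over the 30 heifers. CIDR+24h replicates 3 and 5 had totals of 7009816 and 7058306, inside the range of 6227383 to 8990002 in the other 4 CIDR+24h heifers. The 10 most abundant transcripts of a library took 8.03% and 10.8% of its counts in CIDR+24h replicates 3 and 5, below the 12.2% to 23.6% in the other 4. They also took 21.4% and 18.3% in CIDR+12h replicates 2 and 4, while the remaining CIDR+12h heifers had 9.34% to 16.98%. In Luteal replicates 2 and 5 they took 19.3% and 19.2%, against 10.8% to 13.9% in the other Luteal heifers. In Oestrus replicate 1 they took 11.3%, against 6.87% to 10.4% in the other Oestrus heifers. The part of this concentration of counts in the level of the group was not tested. Scaling factors between libraries (TMM, trimmed mean of M-values) lay between 0.791 and 1.28. With TMM-scaled library totals all 100 still met the rule, and 80 stayed within the first 100. Beyond this and the left-out heifers given below, the part of library totals and scaling in the level of the group was not tested.

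The 100 transcripts spanned a wide range of abundance. Their means over 30 heifers ran from 1.32 to 806 CPM with a median of 21.0, and 29 lay under 10 CPM and 11 over 100 CPM. In CIDR+24h replicate 5, the lowest heifer, the median transcript had 35.5 counts and 2 transcripts had 0, where a count of 0 allows up to 3 counts or 0.425 CPM by counting error alone. The median transcript had 516 counts in CIDR+24h replicate 2.

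ENSBTAT00000001893 ranked first, with a ratio of 5.40. Its CIDR+24h heifers had 251, 1009, 37.5, 419.8, 9.21 and 566 CPM in replicates 1 to 6, and its CIDR+12h heifers had 16.97, 338, 14.6, 275, 12.8 and 56.9 CPM. Oestrus heifers had 239, 33.3, 76.9 and 45.8 CPM, and Oestrus+12h heifers 62.4, 53.8, 9.67 and 24.1 CPM. CIDR+24h replicates 2, 4 and 6 stood above every heifer of the other stages, while replicates 3 and 5 stood below CIDR+12h replicates 2 and 4 and Oestrus replicate 1.

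For this transcript Oestrus+48h heifers had 97.9, 32.0, 16.8, 13.7 and 143 CPM, and Luteal heifers 61.7, 171, 10.96, 17.4 and 172 CPM. The log2 difference of CIDR+24h from CIDR+12h was 1.54 ± 0.962 (SE, edgeR adjusted p = 0.597), and that of Oestrus from CIDR+24h was -2.28 ± 1.15 (edgeR adjusted p = 0.268). Neither passed. With 1 heifer left out the first ran from 0.97, without CIDR+24h replicate 2, to 2.25, and the second from -3.15 to -1.71.

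ENSBTAT00000005074 ranked second, with a ratio of 4.60. It had 64.9, 52.3, 8.70, 64.3, 5.81 and 44.6 CPM in CIDR+24h replicates 1 to 6, and 7.22, 56.9, 3.01, 49.0, 4.08 and 11.4 CPM in CIDR+12h replicates 1 to 6. Oestrus heifers had 59.1, 5.80, 9.74 and 4.23 CPM. The high CIDR+24h heifers, CIDR+12h replicates 2 and 4 and Oestrus replicate 1 had levels of this transcript from 44.6 to 64.9 CPM, with nothing between 18.1 and 34.5 CPM in any heifer.

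Its Oestrus+12h heifers had 6.26, 18.03, 5.80 and 6.58 CPM, its Oestrus+48h heifers 14.3, 9.34, 3.57, 5.28 and 18.1 CPM, and its Luteal heifers 10.2, 43.4, 5.48, 5.72 and 34.5 CPM. The log2 difference of CIDR+24h from CIDR+12h was 0.75 ± 0.776 (SE, edgeR adjusted p = 0.735), and that of Oestrus from CIDR+24h was -1.37 ± 0.907 (edgeR adjusted p = 0.385). The first was 1.35 and 1.17 without CIDR+12h replicates 2 and 4 and 0.45 without CIDR+24h replicate 4, and the second was -2.85 without Oestrus replicate 1. The 2 high CIDR+12h heifers and the high Oestrus heifer lay within the range of the 4 high CIDR+24h heifers.

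ENSBTAT00000025729 and ENSBTAT00000045468, ranked 69 and 33, were the 2 with the smallest p for a lower level at Oestrus among those not yet named. ENSBTAT00000025729 had 3.69, 18.5, 0.713, 3.89, 0 and 7.79 CPM in CIDR+24h replicates 1 to 6, against 0.470 to 1.203 CPM in the 4 Oestrus heifers and 0.253 to 0.552 CPM in the 4 Oestrus+12h heifers. It ranged from 0.102 to 3.34 CPM at CIDR+12h (median 0.964), 0.381 to 1.52 at Oestrus+48h (median 0.428) and 0.122 to 3.65 at Luteal (median 0.997). CIDR+24h replicate 3 lay within the Oestrus range, replicate 5 below it and the other 4 above it, and replicate 2 alone held 32.3% of the transcript's CPM summed over 30 heifers. The 0 in replicate 5 allows up to 0.425 CPM by counting error alone, close to the lowest Oestrus value of 0.470. Values this low rest on few counts, and their order is not resolved.

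ENSBTAT00000045468 had 7.07, 33.5, 1.14, 8.04, 0.425 and 13.8 CPM in CIDR+24h replicates 1 to 6. Its 4 Oestrus heifers had 1.89, 2.07, 1.56 and 1.57 CPM, and Oestrus+12h heifers lay between 0.380 and 0.920 CPM. It ranged from 0.255 to 5.56 CPM at CIDR+12h (median 1.98), 0.661 to 2.92 at Oestrus+48h (median 0.856) and 0.122 to 5.54 at Luteal (median 1.87). CIDR+24h replicates 1, 2, 4 and 6 were above every heifer of the other stages, and Oestrus replicate 1, high for the first 2 transcripts, was not high here.

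The log2 differences of Oestrus from CIDR+24h were -3.07 ± 0.988 for ENSBTAT00000025729 and -2.79 ± 0.908 for ENSBTAT00000045468 (SE, edgeR adjusted p = 0.165 for each). Those of CIDR+24h from CIDR+12h were 2.18 ± 0.794 (edgeR adjusted p = 0.545) and 2.20 ± 0.749 (edgeR adjusted p = 0.511). None passed, and the pair was picked by p in the same heifers. With 1 heifer left out the differences from CIDR+12h ran from 1.32 to 2.84 and from 1.38 to 2.77, both lowest without CIDR+24h replicate 2.

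**Figure D3:**
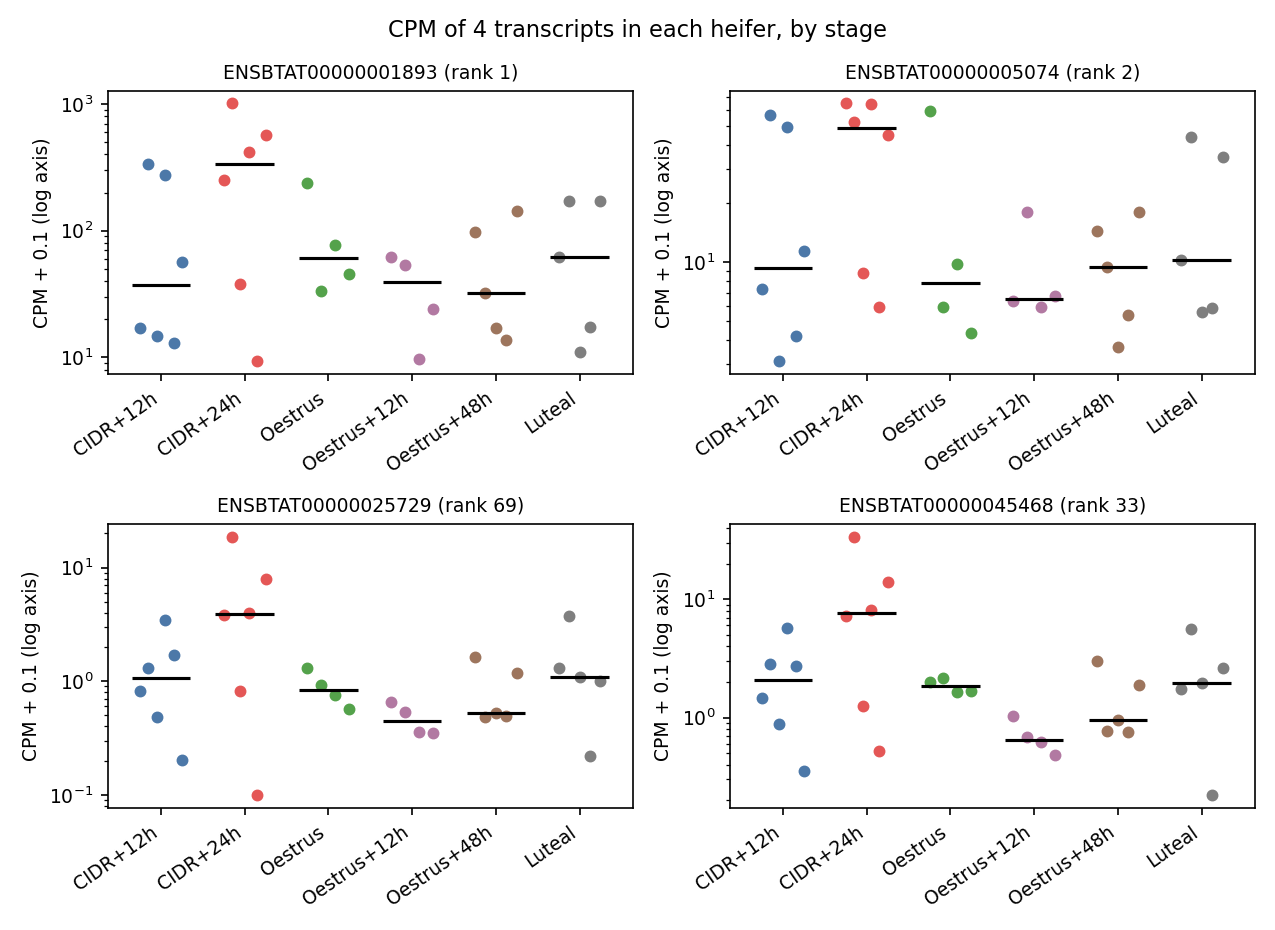
CPM plus 0.1 on a log axis for the 4 named transcripts in each heifer (points) by stage, with the stage median (black line). In each panel 2 CIDR+24h points, replicates 3 and 5, lie far under the other 4, and in the upper panels CIDR+12h and Oestrus hold heifers near the high CIDR+24h level.

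The most abundant of the group, ranked 5 and described for that reason after its values were seen, had a mean of 806 CPM. It had 2303, 3185, 375, 1932, 155 and 2907 CPM in CIDR+24h replicates 1 to 6. Its highest values elsewhere were 1546 and 1514 CPM in CIDR+12h replicates 2 and 4, 1561 in Oestrus replicate 1, and 1241 and 1197 in Luteal replicates 2 and 5. The same heifers were high as for the first 2 transcripts, and here all 4 high CIDR+24h heifers lay above every heifer of the other stages.

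Such a clear top was uncommon in the group. In 11 of 100 transcripts 4 CIDR+24h heifers lay above every heifer of the other stages, in 31 transcripts 3 did, in 24 transcripts 2 did, in 10 transcripts 1 did and in 24 transcripts none did. In 0 of 100 did all 6, as in 0% of the 16207 transcripts from which the group was chosen. For 4 heifers or fewer the share over all transcripts was not worked out, and the same heifers chose the group. Those counts are a description. In 78 transcripts at least 1 heifer of another stage lay above the CIDR+24h median, and at most 4 did.

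The heifers above the CIDR+24h median came from few animals. Oestrus replicate 1 was above it for 51 transcripts, CIDR+12h replicate 4 for 38 and CIDR+12h replicate 2 for 30. Luteal replicates 2 and 5 were above it for 10 each, and Luteal replicate 1 and Oestrus+48h replicate 5 for 2 each, while the other 17 heifers of these stages were above it for 0. CIDR+12h replicates 2 and 4 and Oestrus replicate 1 were above both CIDR+24h replicates 3 and 5 in all 100 transcripts. Shares over all transcripts were not worked out for these counts, and the rule itself used the CIDR+24h median. The counts describe the group only.

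The highest of the 30 heifers was CIDR+24h replicate 2 for 54 transcripts, replicate 6 for 11, replicate 1 for 6 and replicate 4 for 5. For the other 24 it was Oestrus replicate 1 (10), CIDR+12h replicate 4 (8), CIDR+12h replicate 2 (5) or Luteal replicate 5 (1). The highest heifer held from 8.33% to 33.4% of a transcript's summed CPM, 12.4% at the median, so no transcript rested on a single heifer for most of its counts. Shares over all transcripts were not worked out for the highest heifer either, so its counts are a description.

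The next highest stage after CIDR+24h was Luteal for 42 transcripts, Oestrus for 29, CIDR+12h for 16, Oestrus+12h for 7 and Oestrus+48h for 6. The lowest stage median was at Oestrus+12h for 44, Oestrus+48h for 32, CIDR+12h for 11, Oestrus for 7 and Luteal for 6. The group thus had no common second stage. Ratios over the 100 ran from 2.69 to 5.40 with a median of 3.10. The first transcript left out by the limit of 100 had a ratio of 2.68, and the last of the 769 and the first outside had 1.50004 and 1.49976.

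The 100 transcripts varied together between heifers of 1 stage. To keep this apart from the choice by CIDR+24h, correlations of log2(CPM + 0.5) were taken over the 24 heifers of the other 5 stages after subtracting each stage's median. All 4950 pairs of the 100 had a positive Pearson r, 0.76 at the median and 0.24 at the lowest, over 24 points that share library, depth and scaling. The same was not worked out for pairs of other transcripts, so the count of positive pairs is a description. Each transcript's r with the median profile of the other 99 had a median of 0.87 and a minimum of 0.57, and 79 of 100 reached 0.8.

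Some transcripts outside the group followed the same profile. Of 16107 others kept by mean CPM, 504 (3.13%) had r of at least 0.8 with it over the same 24 heifers, and 53 had r of -0.8 or lower, while the median was -0.10. Of the 504, 484 also had their highest stage median at CIDR+24h, as did 3332 of all 16207 kept by mean CPM. Among the 504 were 334 of the 669 that met the ratio of 1.5 without entering the first 100. The same 10 heifers were the highest for those 669 as for the 100. Both sets were chosen by the same CIDR+24h medians, so this likeness is a description and supports nothing further.

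Some of the 100 are not separate signals. No transcript of the group had counts equal to another ID in all 30 heifers. A correlation over 0.99 across the 30 heifers linked 25 of them into 8 groups of 2 and 3 groups of 3, which leaves 86 profiles. Whether these IDs share reads, as isoforms or copies would, could not be read from the files.

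Spread within stages was larger for these transcripts than for most. Choosing the largest ratios of stage medians itself favours transcripts that vary much between heifers, so this contrast is given as a description. At CIDR+24h the median SD of log2(CPM + 0.5) between heifers was 1.62 for the 100 and 0.54 for all 16207. In stages that entered the choice only as an upper bound it was 1.44 against 0.50 at CIDR+12h, 1.24 against 0.47 at Oestrus, 0.75 against 0.42 at Oestrus+12h, 0.97 against 0.48 at Oestrus+48h and 1.05 against 0.47 at Luteal. Stage means took up 19.5% of a transcript's variance over the 30 heifers at the median of the 100, from 7.32% to 36.2%. At the median of all 16207 they took up 20.2%. Chosen for a stage peak, the group thus had about the same share of variance by stage as transcripts at large. These shares were not corrected for the number of stage means fitted. Stages with no effect would also take up part of the variance, and any excess over that part was not tested.

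The level was then read in CIDR+24h heifers left out of the choice. Each CIDR+24h heifer was left out in turn, the rule was applied to the other 29 heifers, and the level of the 100 transcripts so found was read in the heifer left out, as its CPM over the highest median of the other stages with 0.5 added to each. The median of this ratio over the transcripts was 2.71 in replicate 1, 4.01 in replicate 2, 2.18 in replicate 4 and 3.55 in replicate 6. It was 0.603 in replicate 3 and 0.329 in replicate 5. In the first 4, between 90 and 97 of the 100 transcripts stood above every other stage median, as did 19.5% to 35.3% of all transcripts kept by mean CPM. In replicates 3 and 5, 6 and 1 of 100 did, and 25.4% and 20% of all. The medians of the other stages had a part in the choice, which favours low ones and so raises these ratios. They are given as a description. The lists found shared between 66 and 76 transcripts with the 100.

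**Figure D4:**
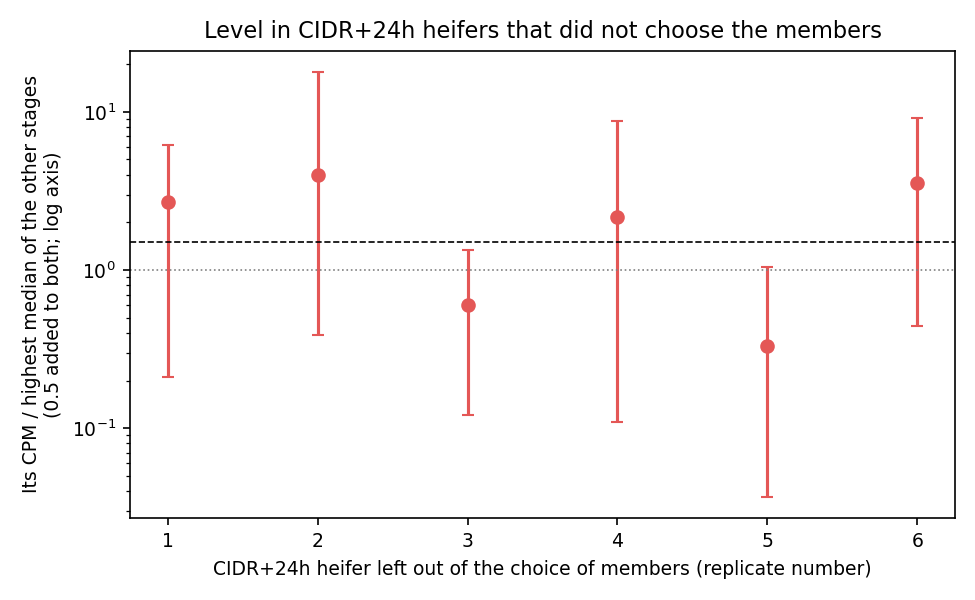
Level of the transcripts chosen without a CIDR+24h heifer, read in that heifer, as CPM over the highest median of the other 5 stages with 0.5 added to each, on a log axis (points: median over 100 transcripts; bars: lowest to highest; dotted line at 1, dashed line at 1.5). Replicates 1, 2, 4 and 6 lie at 2.18 or above and replicates 3 and 5 at 0.603 or below.

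Tests by edgeR's quasi-likelihood method over all 16940 transcripts that passed its count filter, which all 100 did, are given for the stages that chose the group as a description. In the test for any difference among the 6 stages, 0 of 100 passed an adjusted p of 0.05, where 0.23% of all transcripts did, and the smallest adjusted p was 0.0937 (edgeR), for ENSBTAT00000045468. At an unadjusted p under 0.05 there were 34 of 100, against 10.9% of all. DESeq2 called 6 of 100, against 1.72% of all. Leaving out CIDR+24h replicate 3, edgeR called 1 (0.336% of all), and leaving out replicate 5 it called 2 (0.384% of all). The 34 became 70 (11.1% of all) without Oestrus replicate 1. Without CIDR+24h replicates 2 to 6 in turn it became 4, 56, 17, 60 and 17, where 7.01%, 12.1%, 8.39%, 14.1% and 8.24% of all passed.

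All 100 transcripts had a higher fitted level at CIDR+24h than at CIDR+12h, with a median log2 difference of 1.00 against 0.01 over all transcripts tested. edgeR called 0 of 100 (0% of all), and DESeq2 0 (0.0649% of all). At an unadjusted p under 0.05 edgeR had 12 higher, against 4.63% of all. Leaving out CIDR+12h replicate 2 or 4 gave 38 or 45 (6.63% or 6.88% of all), and leaving out CIDR+24h replicate 2 gave 2 (2.28% of all). Leaving out any of 10 heifers, the 6 of CIDR+12h and CIDR+24h replicates 2, 3, 5 and 6, moved it by more than 1.5 times. Without the 3 heifers whose animal number begins with 2 digits (Oestrus replicates 3 and 4 and CIDR+12h replicate 5) it was 6 (3.42% of all), and 3 of the 100 were lower at CIDR+24h.

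All 100 had a lower fitted level at Oestrus than at CIDR+24h, with a median log2 difference of -1.40 against -0.07 over all. edgeR called 0 of 100 (0% of all) and DESeq2 0 (0.702% of all). At an unadjusted p under 0.05 edgeR had 31 lower, against 9.18% of all. Without Oestrus replicate 1 there were 94 (10.4% of all) and the median was -2.28. There were 6, 10 and 7 without Oestrus replicates 2, 3 and 4, where 12.6%, 7.56% and 4.04% of all were lower. Without CIDR+24h replicates 2, 4 and 6 there were 7, 18 and 17, where 7.20%, 5.89% and 8.86% of all were. Without the 3 heifers with 2-digit numbers there were 0 (3.31% of all), the median was -0.85, and 1 of the 100 was higher at Oestrus.

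All 100 were also lower at Luteal than at CIDR+24h, with a median log2 difference of -1.19 against -0.01 over all. edgeR called 0 of 100 (0% of all), DESeq2 called 0 (0.655% of all), and 17 had an unadjusted p under 0.05 in edgeR, against 6.96% of all lower at Luteal. Omissions of single heifers moved this from 3 (4.06% of all), without CIDR+24h replicate 2, to 40 (9.25% of all), without CIDR+24h replicate 5, and 10 of them, the 5 Luteal heifers and CIDR+24h replicates 1, 2, 3, 5 and 6, by more than 1.5 times. These 3 comparisons share the CIDR+24h heifers and the choice of the group fixed their direction, so their counts support nothing further.

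Comparisons without CIDR+24h heifers used stages whose medians the rule had only bounded from above. For these comparisons, the shares of all transcripts lower or higher were not worked out. The 100 varied together between heifers, so their counts by direction are a description. Between Oestrus and CIDR+12h the median log2 difference over the 100 was -0.47, with 84 lower and 16 higher at Oestrus, against -0.02 over all transcripts. edgeR called 0 of 100 (0% of all), and 0 had an unadjusted p under 0.05 where 11.3% of all did. DESeq2 called 0 (0.679% of all). The median was -1.33 without Oestrus replicate 1, when 14 had an unadjusted p under 0.05 against 10.8% of all. It was -0.01 and -0.00 without CIDR+12h replicates 2 and 4, and -0.10 without the 3 heifers with 2-digit numbers.

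Between Luteal and CIDR+12h the median log2 difference over the 100 was -0.09, with 63 lower and 37 higher at Luteal, against 0.01 over all. It turned positive without CIDR+12h replicates 2 or 4 (0.25 and 0.30) or Luteal replicates 1, 3 or 4 (0.03, 0.11 and 0.12), and was -0.31 without the 3 heifers with 2-digit numbers. edgeR called 0 of 100 (0% of all), 0 had an unadjusted p under 0.05 where 1.73% of all did, and DESeq2 called 0 (0.295% of all). Between Luteal and Oestrus the median was 0.31, with 71 higher and 29 lower at Luteal, against 0.01 over all transcripts. edgeR again called 0 of 100 (0% of all), 0 had an unadjusted p under 0.05 where 7.24% of all did, and DESeq2 called 0 (0.0649% of all). Without Oestrus replicate 1 that median was 1.17 and 6 had an unadjusted p under 0.05, no more than the 7.48% of all, and without Luteal replicates 2 and 5 it was -0.075 and -0.045.

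**Figure D5:**
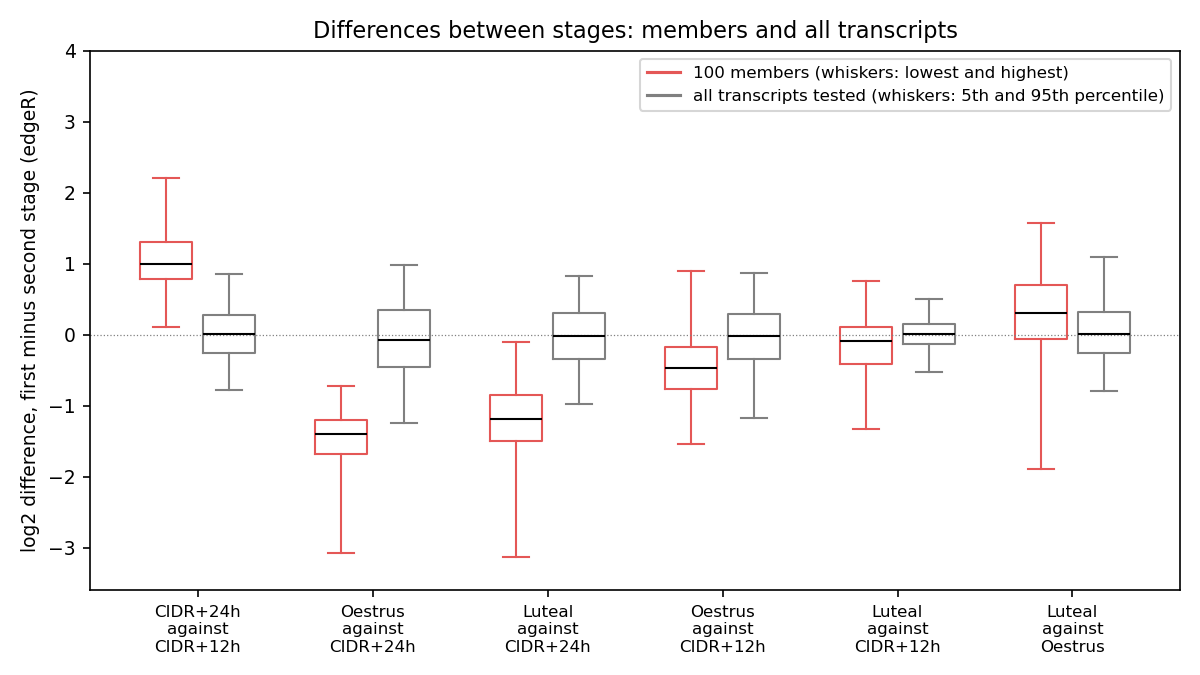
log2 differences between stages (first minus second, edgeR) for the 100 transcripts (red boxes, whiskers from lowest to highest) and all 16940 tested (grey boxes, whiskers from the 5th to the 95th percentile). The 3 comparisons with CIDR+24h stand off 0 with medians of 1.00, -1.40 and -1.19, a direction fixed by the choice of the group, and the 3 without it have medians of -0.47, -0.09 and 0.31.

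Without the 3 heifers with 2-digit numbers, which leaves Oestrus with replicates 1 and 2, 62 of the 100 still met the rule, while leaving out any single Oestrus heifer kept all 100. The sources used here do not say what the digits mark. Leaving out any single heifer kept between 95 and 100 of the 100 above the ratio of 1.5, although only 57 to 98 stayed within the first 100. With stage means in place of medians, 77 of the 100 met the rule.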

How the data were processed

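Per the labels' protocols, polyadenylated cervical RNA was sequenced as single reads by Illumina's standard procedure, and the submitters' processing notes name CASAVA 1.0. Aligner, counting program, genome build, annotation and use of strand: none was given in the sources used here. Reads of overlapping or antisense transcripts may therefore be mixed. The authors deposited raw counts per Ensembl transcript, and no counts were changed.

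Levels are plain CPM, without TMM scaling. Tests used edgeR 4.0.16 in R 4.3.3 (TMM, filterByExpr with minimum count 10 and total 15, robust quasi-likelihood fit of 6 stage means over 30 heifers, biological coefficient of variation 0.468), with Benjamini-Hochberg adjustment over 16940 transcripts. They were checked on simulated counts. SEs come from the fold change and F. DESeq2 1.42.0 was an alternative. Replicates are separate heifers numbered in accession order, and every pair of libraries within a stage differed by more than sampling noise (smallest chi-square per degree of freedom 20.5).

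The members, lists and tests were chosen with earlier results of these data known. The rule for naming, with IDs unmatched, gave the members ranked 1 and 2 and the 2 others with the smallest p for a lower level at Oestrus. Gene lists and cell type markers fixed by symbol could not be applied.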

Additional observations from a re-analysis of the deposited data

Results flagged for a closer look

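Each value here stood apart from the other heifers of its stage by a gap large for the number of heifers. Of 42 sets of heifers examined (6 stages for 7 quantities), 4 did so. By chance about 1 in 20 would if values were normally distributed and the sets independent. Normality was not checked, and most of the quantities share the 100 transcripts, so 4 of 42 cannot be set against that rate. Oestrus replicate 1 had 1.08% of its counts in the 100 transcripts, against 0.175% to 0.326% in the other Oestrus heifers. It also had 59.1 CPM of ENSBTAT00000005074, against 4.23 to 9.74 CPM in the others, and since that transcript is 1 of the 100 the pair is not 2 findings. Oestrus+12h replicate 2 had 18.03 CPM of ENSBTAT00000005074, and the remaining 3 of its stage 5.80 to 6.58 CPM. The library of CIDR+12h replicate 6 held 19628122 counts, while its stage otherwise ran from 8819190 to 11075868.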

How the results depend on the processing

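The number of transcripts meeting the rule was 769, and it was 487 with stage means, 448 without the heifers with 2-digit numbers, 877 with TMM scaling, 716 with 1 added to the medians and from 515 to 1123 with 1 heifer left out. Of the 100 members, 62 met it without the heifers with 2-digit numbers, and from 95 to 100 with 1 heifer left out. In the 6-stage test 0 members passed with edgeR, 6 with DESeq2 and from 0 to 2 with 1 heifer left out, and over all transcripts 39 passed with edgeR, 292 with DESeq2 and 0 without the heifers with 2-digit numbers. In the 6 pairs of stages 0 members passed in every setting run. The median log2 difference of the members of Luteal from Oestrus, 0.31, was -0.22 without the heifers with 2-digit numbers and from -0.075 to 1.17 with 1 heifer left out (-0.075 and -0.045 without Luteal replicates 2 and 5). That of Luteal from CIDR+12h, -0.09, ran from -0.49 to 0.30. The log2 differences of the 4 named transcripts kept their sign in every setting, but that of ENSBTAT00000005074 for Oestrus from CIDR+24h, -1.37, ran from -2.85 to -1.01 with 1 heifer left out and was -0.60 without the heifers with 2-digit numbers. Its difference of CIDR+24h from CIDR+12h, 0.75, ran from 0.45 to 1.35. The levels in left-out CIDR+24h heifers with TMM scaling were 2.73, 4.70, 0.602, 2.74, 0.352 and 3.78. No paired analysis was possible because replicate numbers were given in accession order and each heifer gave 1 sample.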
